A study of Arabidopsis thaliana with 12 samples.

Results

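The flotillin genes of Arabidopsis thaliana are the 3 genes FLOT1 (AT5G25250), FLOT2 (AT5G25260) and FLOT3 (AT5G64870), chosen by their identifiers from the 32705 gene rows of the deposited table, with earlier results of these data known. All 3 had a row of their own and none was listed at 0 in any condition. The material was whole 10-day-old seedlings of ecotype Columbia, grown on MS medium, and every group carried the tfIIs-1 allele (SALK_056755) of the gene for the transcript elongation factor TFIIS. The 4 conditions were GFP-TFIISmut seedlings with 2 mM estradiol for 24 h (TFIISmut induced), GFP-TFIISmut seedlings with ethanol for 24 h (TFIISmut mock), GFP-TFIIS seedlings with the same estradiol treatment (TFIIS induced) and GFP-TFIIS seedlings with ethanol (TFIIS mock). GFP-TFIIS and GFP-TFIISmut are green fluorescent protein fusions of the intact and of a mutated TFIIS, made from estradiol-inducible transgenes; the labels name neither the mutation, nor the promoter, nor how many independent lines were used. Each condition had 3 libraries of polyadenylated RNA, but the table holds 1 pooled value per gene and condition, so the values below carry no error and no n, and no difference could be set against the spread between seedlings. The column names are abbreviations that were read as these conditions, since no label explains them.

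Flotillins are scaffold proteins of the plasma membrane that carry an SPFH domain, the fold shared by stomatins, prohibitins, flotillins and the bacterial HflK/C proteins. They assemble on the inner face of the membrane and mark sterol-rich microdomains. In Arabidopsis, FLOT1 takes part in an endocytic route that depends on such microdomains and not on clathrin, and it is needed for normal seedling development. TFIIS, the protein varied in this study, lets RNA polymerase II cut the RNA it holds and resume after it has backtracked.

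FLOT1 and FLOT2 are neighbours on chromosome 5. In the TAIR10.1 assembly, FLOT1 lies at 8749680 to 8751636 and FLOT2 at 8752684 to 8754522, both on the plus strand, with 1047 bases between them. FLOT3 lies elsewhere on the same chromosome, at 25929432 to 25931384 on the minus strand. Each gene has 2 exons and 1 intron, and the introns are 244 bases long in FLOT1, 140 in FLOT2 and 93 in FLOT3. The coding sequences are 1413, 1392 and 1440 bases long. FLOT1 and FLOT2 were identical at 88.6% of the columns of a global alignment of these coding sequences, FLOT1 and FLOT3 at 81.2%, and FLOT2 and FLOT3 at 77.8%. Near-identical copies can share reads, so the stretch where FLOT1 and FLOT2 cannot be told apart is printed here: the longest identical run of the coding sequences, 98 bases that start at coding base 787 of both genes.
FLOT1 and FLOT2 shared run: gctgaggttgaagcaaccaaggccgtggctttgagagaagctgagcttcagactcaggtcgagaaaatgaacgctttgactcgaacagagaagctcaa
The longest identical run was 35 bases for FLOT1 and FLOT3 and 32 bases for FLOT2 and FLOT3. Of the 1664 stretches of 50 bases in the FLOT1 transcript, 49 (2.94%) also occur in the FLOT2 transcript and 0 in that of FLOT3. Of the 1650 stretches in the FLOT2 transcript, 49 (2.97%) occur in FLOT1. No source used here gives the read length or the treatment of shared reads, so part of the FLOT1 and FLOT2 values could come from fragments of the other gene. The 3′ end of FLOT2 also overlaps AT5G25265, on the opposite strand, by 342 bases in TAIR10.1, or 18.6% of the FLOT2 gene, whereas the intervals of the 2 rows in the table do not overlap. The libraries were stranded, but whether the counting used strand was not given, so fragments of this overlap may not be assigned with certainty. FLOT1 and FLOT3 overlap 0 other annotated genes.

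The 250 bases before the annotated starts of FLOT1 and FLOT2 are printed because these 2 genes are neighbours and had the 2 highest flotillin levels. They are TAIR10.1 bases read 5′ to 3′ on the gene's strand, at chr5:8749430-8749679 (plus strand) for FLOT1 and chr5:8752434-8752683 (plus strand) for FLOT2. Capitals mark TTGAC, the core of the W-box bound by WRKY transcription factors, on either strand. Only this core was searched, not the longer full W-box, so a match need not be a site that WRKY factors bind.
FLOT1 upstream: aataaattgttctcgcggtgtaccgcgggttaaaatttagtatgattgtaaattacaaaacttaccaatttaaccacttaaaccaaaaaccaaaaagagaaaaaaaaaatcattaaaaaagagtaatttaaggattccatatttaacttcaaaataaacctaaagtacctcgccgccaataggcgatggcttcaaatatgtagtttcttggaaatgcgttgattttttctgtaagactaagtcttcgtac
FLOT2 upstream: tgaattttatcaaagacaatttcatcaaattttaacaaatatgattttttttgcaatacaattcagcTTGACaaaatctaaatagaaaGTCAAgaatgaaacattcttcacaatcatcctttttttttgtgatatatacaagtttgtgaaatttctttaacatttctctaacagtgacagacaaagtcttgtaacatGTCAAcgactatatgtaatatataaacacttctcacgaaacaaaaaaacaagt
The FLOT2 window holds 3 W-box cores, which begin 183, 162 and 53 bases before the start. The FLOT1 window holds 0. Of the 27443 windows of this length before nuclear protein-coding genes, 44.9% hold at least 1 core and 3.38% hold 3 or more. A further 4 motifs were searched on both strands: the TGA factor core (TGACG, which can share the letters TGAC with a W-box core), the G-box (CACGTG), the TATA box (TATAAA) and the mitochondrial dysfunction motif. The TATA box was found 33 bases before the start of FLOT2, not in the window of FLOT1, and in 47.3% of all windows. The TGA factor core, the G-box and the mitochondrial dysfunction motif were found in 0 of these 2 windows, and occur in 18.6%, 6.49% and 1.2% of all windows. The 2 windows were identical at 48.3% of aligned columns, and their longest identical run was 9 bases.

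The values were read as FPKM, fragments scaled by gene length and sequencing depth, although no header or label names the unit. Setting levels side by side between genes rests on that reading. The TFIIS row may hold both transgene and native reads, but no source used here says which. It stood at 87.0 FPKM in TFIISmut induced and 17.6 FPKM in TFIISmut mock, and at 742 FPKM in TFIIS induced and 21.1 FPKM in TFIIS mock. The induced level of this row thus differed between the lines. The TFIIS mock pool stood apart in RAB18, a dehydrin gene that responds to water loss and was added after its values were seen. RAB18 was at 6.76 FPKM in TFIISmut induced, 1.78 FPKM in TFIISmut mock, 2.39 FPKM in TFIIS induced and 119 FPKM in TFIIS mock. The flotillin differences of the induced pools against TFIIS mock are therefore also given against the TFIISmut mock pool.

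FLOT1 was at 77.6 FPKM in TFIISmut induced, 3.42 FPKM in TFIISmut mock, 4.21 FPKM in TFIIS induced and 5.67 FPKM in TFIIS mock. Only the TFIISmut induced pool was high, and the other 3 pools lay between 3.42 and 5.67 FPKM, highest in TFIIS mock. FLOT2, the tandem neighbour, was at 61.4 FPKM in TFIISmut induced, 1.29 FPKM in TFIISmut mock, 1.38 FPKM in TFIIS induced and 3.96 FPKM in TFIIS mock. It had the same high pool, and among the low pools TFIIS mock stood above the other 2. FLOT3 was at 6.54 FPKM in TFIISmut induced, 0.687 FPKM in TFIISmut mock, 0.856 FPKM in TFIIS induced and 0.604 FPKM in TFIIS mock. It was low throughout, and its TFIISmut induced level was little above that of FLOT1 in the TFIIS mock pool. In whole seedlings, more cells of a type that expresses a gene and more of its mRNA per cell cannot be told apart.

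**Figure D1:**
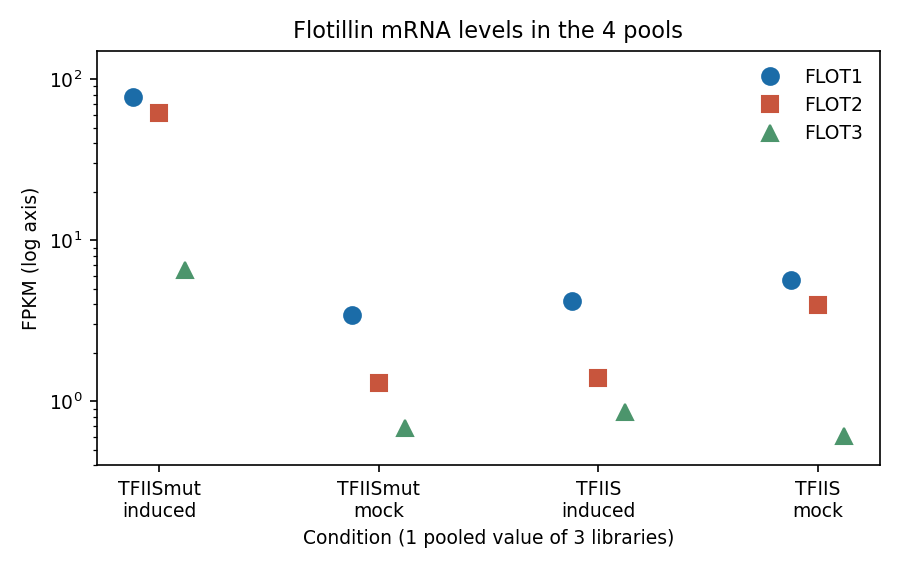
Level of each flotillin gene in FPKM, on a log axis, in the 4 conditions; each point is the authors' single pooled value of 3 libraries, with no error. All 3 genes are highest in TFIISmut induced, at 77.6, 61.4 and 6.54 FPKM, and FLOT2 stands higher in TFIIS mock (3.96 FPKM) than in TFIISmut mock (1.29 FPKM) or TFIIS induced (1.38 FPKM).

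The order FLOT1, FLOT2, FLOT3 from high to low held in all 4 pools, but the distances between the genes did not stay the same. The FPKM ratio of FLOT1 to FLOT2 was 1.26 in TFIISmut induced and 2.64 in TFIISmut mock, and 3.04 in TFIIS induced and 1.43 in TFIIS mock. FLOT2 made up 42.2% of the summed flotillin FPKM in TFIISmut induced and 24.0% in TFIISmut mock, and 21.5% in TFIIS induced and 38.7% in TFIIS mock. The share of FLOT3 was 4.49% in TFIISmut induced and 12.7% in TFIISmut mock, and 13.3% in TFIIS induced and 5.91% in TFIIS mock. The 2 pools with more FLOT1 and FLOT2 were thus also the 2 in which FLOT2 stood nearest to FLOT1 and FLOT3 took the smallest share. Without replicates no order between neighbouring levels could be set against a spread. Among the genes above 0 FPKM, 91.2% had a lower level than FLOT1 in TFIISmut induced and 36.1% in TFIISmut mock; for FLOT2 these shares were 89.0% and 24.7%, and for FLOT3 47.9% and 19.8%.

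Differences are given as differences of log2(FPKM + 1), which understate those of low genes. A gene was eligible for a comparison when it was listed above 0 in each pool compared and reached 5 FPKM in at least 1 of them; it was called higher or lower when the difference was at least 1 in size. This is a rule of size and not a test. The members were chosen on these same comparisons, so their values describe them and support nothing further.

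The comparison of TFIISmut induced with TFIISmut mock asks what changed when the mutated transgene was induced; the pools also differ in the estradiol itself. In it all 3 flotillin genes were eligible and called higher, where 5.51% of the 14456 eligible genes were. Since the choice of the genes used this contrast, nothing is read from that count. FLOT2 differed by 4.77, the 6th highest value, with an FPKM ratio of 47.4. FLOT1 differed by 4.15, the 21st highest, with an FPKM ratio of 22.7. FLOT3 differed by 2.16 and ranked 237, with an FPKM ratio of 9.52. The ordering of the differences was not that of the levels, since FLOT2 had the lower level and the larger difference. With the TFIIS mock pool as control in place of TFIISmut mock, the differences were 3.56 for FLOT1, 3.65 for FLOT2 and 2.23 for FLOT3, so that FLOT1 and FLOT2 lay close to each other.

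For TFIIS induced against TFIIS mock, where seedlings received the same estradiol but made the intact protein, 0 flotillin genes were called, and 1.48% of 14203 eligible genes were called in either direction. The pooled values allow no p-value for either comparison. FLOT1 was the only eligible member, with a difference of -0.36. FLOT2 differed by -1.06, with an FPKM ratio of 0.35, but did not reach 5 FPKM in either pool and was not eligible. FLOT3 differed by 0.21 and was not eligible. Set against the TFIISmut mock pool instead, the signs of FLOT1 and FLOT2 turned: the differences were 0.24 for FLOT1, 0.06 for FLOT2 and 0.14 for FLOT3. The lower FLOT1 and FLOT2 values therefore rest on the TFIIS mock pool.

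In the ethanol-treated seedlings, FLOT1 and FLOT2 had the lower values in the TFIISmut line, and neither was called. This comparison rests on the TFIIS mock pool, which stood apart in RAB18. For TFIISmut mock against TFIIS mock, FLOT1 was at 3.42 FPKM against 5.67 FPKM, a difference of -0.59, and FLOT2 at 1.29 FPKM against 3.96 FPKM, a difference of -1.11 that was not eligible. The FLOT1 difference lay just below the central 95% of all eligible genes, which ran from -0.57 to 0.43. FLOT3 differed by 0.07 and was not eligible either, so FLOT1 was the only member the rule could call. In this comparison 0 flotillin genes and 1.03% of 14113 eligible genes were called, and no replicates were available for a test.

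When the induction effect of the TFIIS line was subtracted from that of the TFIISmut line, the difference was 4.51 for FLOT1, 5.82 for FLOT2 and 1.95 for FLOT3. All 3 genes were called higher, where 6.57% of 14835 eligible genes were. For TFIISmut induced against TFIIS induced, which uses neither mock pool, the differences were 3.92 for FLOT1, 4.71 for FLOT2 and 2.02 for FLOT3, and all 3 were called higher, where 5.34% of 14619 eligible genes were. Replacing the TFIIS mock pool by the TFIISmut mock pool in the difference of induction effects gives these same values, because the shared control then cancels. These comparisons share pools, so they are not independent of each other.

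**Figure D2:**
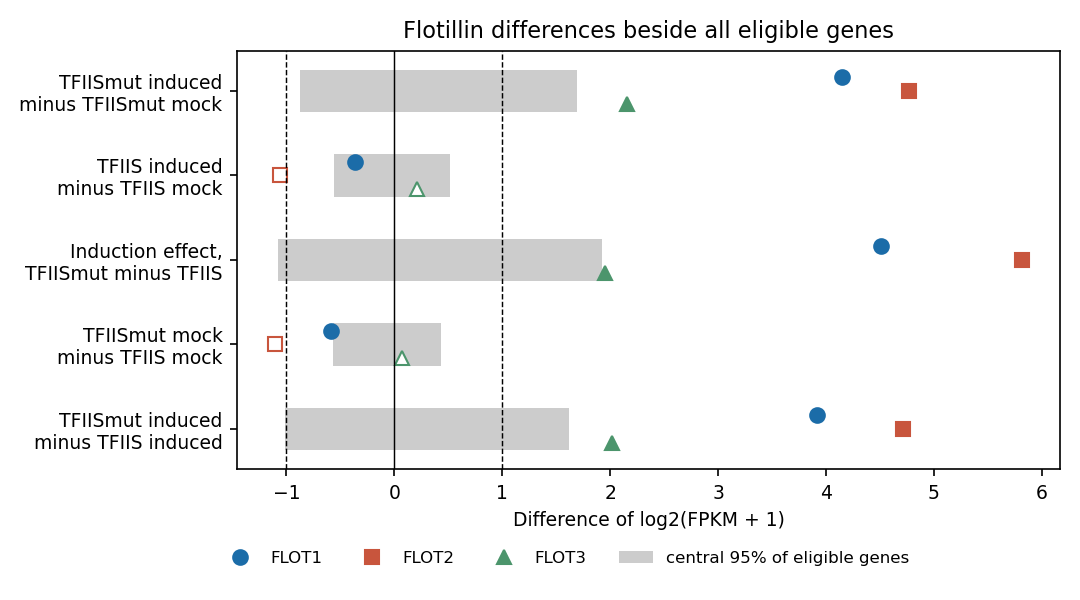
Difference of log2(FPKM + 1) of FLOT1, FLOT2 and FLOT3 in the 5 comparisons, with the central 95% of all eligible genes as grey bars; dashed lines mark a difference of 1 in size, and open symbols mark genes that were not eligible. All 3 genes lie right of the grey bar in TFIISmut induced minus TFIISmut mock (4.15, 4.77 and 2.16, against an upper end of 1.69). FLOT1 lies inside it in TFIIS induced minus TFIIS mock. In TFIISmut mock minus TFIIS mock, FLOT1 lies just left of it (-0.59, against a lower end of -0.57).

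The rows next to the FLOT1 and FLOT2 pair were not called, and near FLOT3 the gene PEP2 was also highest in TFIISmut induced but too low to be eligible. Of the 4 rows on each side of the FLOT1 and FLOT2 pair, 6 of 8 were eligible in TFIISmut induced against TFIISmut mock, their differences ran from -0.64 to 0.2, and 0 were called. AT5G25265, the gene that overlaps the end of FLOT2, annotated as a hydroxyproline O-arabinosyltransferase-like gene, was at 50.1 FPKM in TFIISmut induced and 47.9 FPKM in TFIISmut mock. AT5G25240, upstream of FLOT1, was at 4.75 FPKM in TFIISmut induced and 7.99 FPKM in TFIISmut mock. Around FLOT3, 6 of 8 rows were eligible, with differences from -0.5 to 0.93, and 0 were called. Over all eligible genes 5.51% were called higher and 1.69% lower in this comparison. A count of 0 in 6 at either place is near those shares, so nothing is read from it. On one side of FLOT3 lie genes for precursors of elicitor peptides, danger signals of plant immunity. Of these, PEP2 was at 4.46 FPKM in TFIISmut induced and 0.772 FPKM in TFIISmut mock, a difference of 1.62 that was not eligible, and PEP3 was at 5.28 FPKM in TFIISmut induced and 2.29 FPKM in TFIISmut mock, a difference of 0.93. PEP1 differed by 0.36 in the same comparison. In the TFIIS line, PEP2 was at 0.850 FPKM in TFIIS induced and 1.85 FPKM in TFIIS mock. PEP3 was at 0.905 FPKM in TFIIS induced and 3.84 FPKM in TFIIS mock, so its TFIISmut induced value lay nearer to TFIIS mock than to TFIISmut mock. DPE1, a starch-metabolism enzyme on the other side, was at 16.7 FPKM in TFIISmut induced and 22.0 FPKM in TFIISmut mock.

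**Figure D3:**
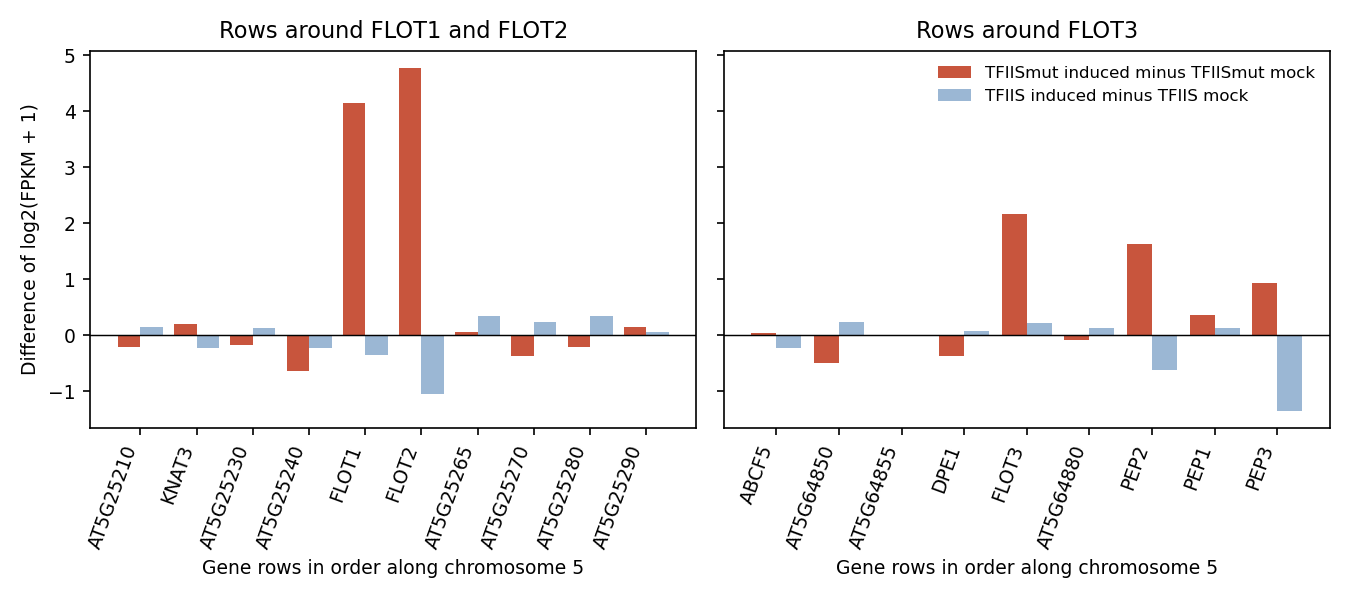
Difference of log2(FPKM + 1) of the flotillin genes and of the 4 gene rows on each side, in order along chromosome 5, for TFIISmut induced minus TFIISmut mock and TFIIS induced minus TFIIS mock. In TFIISmut induced minus TFIISmut mock, the bars of FLOT1 (4.15) and FLOT2 (4.77) stand beside neighbours that run from -0.64 to 0.2 among eligible rows. PEP2 (1.62) and PEP3 (0.93) are above 0 there, on one side of FLOT3 (2.16). In TFIIS induced minus TFIIS mock, PEP2 (-0.62) and PEP3 (-1.35) are below 0 and not eligible.

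Likeness was measured as the Euclidean distance between log2(FPKM + 1) profiles over the 4 conditions, each centred on its own mean, among 14793 nuclear genes other than the flotillins. The points are only 4 pools, so a small distance describes these pools. The added 1 also shrinks the differences of low genes such as FLOT3, so a small distance need not mean a like FPKM ratio. Nearest to FLOT1 were AT5G22530 (distance 0.26), the shared row of AT1G05670 and the glycosyltransferase gene UGT74E1 (0.31), AT2G18690 (0.34), MPT2, a mitochondrial phosphate transporter (0.35), and AT1G57630, a TIR domain gene (0.38). MPT2 was at 27.6 FPKM in TFIISmut induced and 1.07 FPKM in TFIISmut mock. Nearest to FLOT2 were CYP71B15 (PAD3), the last enzyme of camalexin synthesis (0.25), SAG13, a senescence-associated gene (0.32), AT5G52760 (0.38), AT2G18690 (0.52) and AT5G22530 (0.61). CYP71B15 had the same order of pools as FLOT2, at 116 FPKM in TFIISmut induced, 3.89 FPKM in TFIISmut mock, 4.03 FPKM in TFIIS induced and 7.60 FPKM in TFIIS mock. Nearest to FLOT3 were AAC3, an ADP/ATP carrier (0.05), the shared row of AT5G53740 and AT5G53742 (0.10), CAD8, a cinnamyl alcohol dehydrogenase (0.13), ZCF37 (0.14) and AT5G57510 (0.17). AAC3 was at 56.0 FPKM in TFIISmut induced, 11.6 FPKM in TFIISmut mock, 12.5 FPKM in TFIIS induced and 11.2 FPKM in TFIIS mock. FLOT1 and FLOT2 were 0.67 apart, with 6 genes nearer to FLOT2 than FLOT1 was and 35 nearer to FLOT1 than FLOT2 was. FLOT3 was 1.59 from FLOT1 and 2.18 from FLOT2. Of 14795 genes, the other flotillins included, 3591 were nearer to FLOT3 than FLOT1 was and 12313 nearer than FLOT2 was. Seen from the other genes, 210 were nearer to FLOT1 than FLOT3 was and 227 nearer to FLOT2.

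The flotillins belong to a larger set of SPFH proteins. The list of the others held the 4 hypersensitive-induced reaction genes (HIR, plasma membrane proteins of immunity), 7 prohibitin genes (PHB, of the inner mitochondrial membrane) and 2 stomatin-like genes, of which 12 of 13 were analysed here. In TFIISmut induced against TFIISmut mock, 10 were eligible, 4 were called higher and 0 lower, where 5.51% of all eligible genes were called higher. All 10 lay above 0, with a median of 0.52 against 0.05 over all eligible genes. Under the 4 other scalings the median of the list ran from 0.39 to 0.44. The list was chosen with earlier results of these data known, so these values are a description. Called by their names in the table, which differ from other HIR numberings, HIR2 (AT1G69840) was at 82.7 FPKM in TFIISmut induced and 26.5 FPKM in TFIISmut mock, a difference of 1.61. HIR3 (AT3G01290) was at 219 FPKM in TFIISmut induced and 90.1 FPKM in TFIISmut mock, a difference of 1.27. The largest difference, 1.95, was that of AT5G54100, a stomatin-like gene with the synonym SLP2 in the reference annotation, at 79.0 FPKM in TFIISmut induced and 19.8 FPKM in TFIISmut mock. PHB4 differed by 1.03, at 111 FPKM in TFIISmut induced and 53.9 FPKM in TFIISmut mock, and fell below the limit of 1 under each of the 4 other scalings, which left 3 genes called.

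The remaining SPFH genes were closer to their mock levels. HIR4 (AT5G51570) differed by 0.56, HIR1 (AT5G62740) by 0.35, PHB1 by 0.48, PHB3 by 0.46, and PHB2 and PHB6 by 0.22 each. PHB5 and PHB7 stayed at or under 0.305 FPKM in every pool and were not eligible. In TFIIS induced against TFIIS mock, 0 of the 10 eligible SPFH genes were called, where 1.48% of all eligible genes were, and the median was -0.08. That comparison rests on the TFIIS mock pool, and a count of 0 in 10 is near this share. FLOT1 and FLOT2 were below all 4 HIR genes in TFIISmut mock, where HIR2, the lowest of the HIR genes, was at 26.5 FPKM. In TFIISmut induced their 77.6 and 61.4 FPKM fell within the HIR range of 40.6 to 219 FPKM.

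Other genes of membrane microdomains and of endocytosis had smaller differences. Remorins are plant proteins that also organise plasma membrane microdomains, and 3 of the 4 listed remorin genes were eligible in TFIISmut induced against TFIISmut mock. They had differences of -0.43 (AT3G61260), -0.41 (AT2G45820, DBP in the table) and -0.51 (AT5G23750), and 0 were called. The 14 genes of the clathrin route, the other main entry into the cell, had a median of 0.02, with 7 on each side of 0 and 1 called higher, a count near the 5.51% of all eligible genes; under the 4 other scalings the median ran from -0.10 to -0.05 and the same 1 gene was called. That gene was AT3G51890, a clathrin light chain gene with the synonym CLC3 in the reference annotation, at 26.3 FPKM in TFIISmut induced and 10.8 FPKM in TFIISmut mock. The clathrin heavy chain genes CHC1 and CHC2 differed by -0.39 and -0.35. Of the genes of 5 plasma membrane proteins studied in microdomains, 0 were called. Over all eligible genes 5.51% were called higher and 1.69% lower, so 0 of 3 remorin genes and 0 of these 5 are near those shares. Of the 5, RBOHD, the NADPH oxidase of immune signalling, differed by 0.77, the aquaporin gene PIP2-1 by -0.74, the ammonium transporter gene AMT1-3 by -0.44, the brassinosteroid receptor gene BRI1 by -0.15 and the flagellin receptor gene FLS2 by -0.01.

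**Figure D4:**
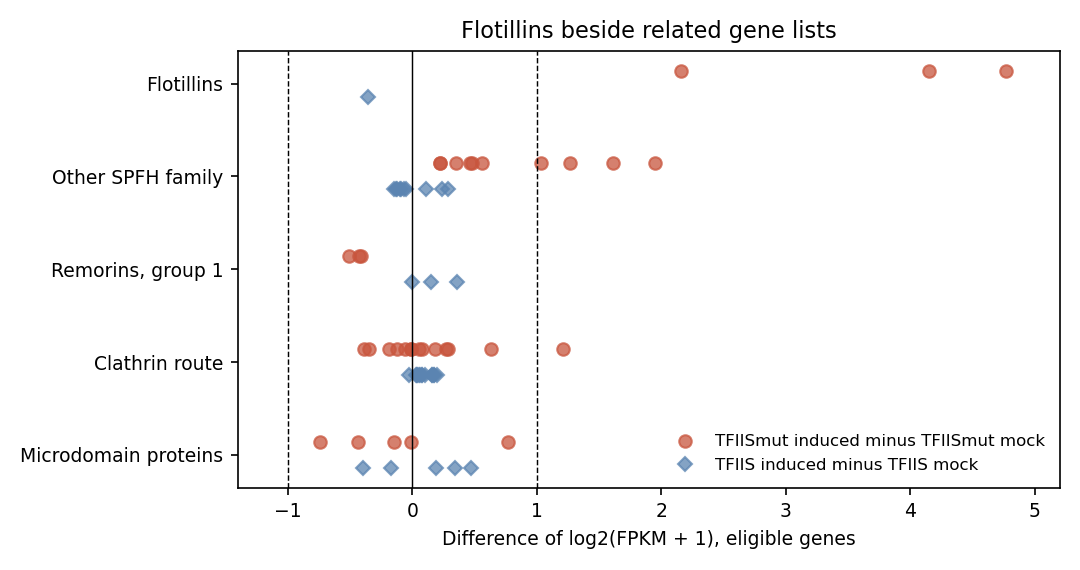
Difference of log2(FPKM + 1) of each eligible gene in 5 gene lists, for TFIISmut induced minus TFIISmut mock (circles) and TFIIS induced minus TFIIS mock (diamonds); dashed lines mark a difference of 1 in size. The flotillins reach 4.77, the other SPFH genes run from 0.22 to 1.95, the remorins lie between -0.51 and -0.41 and the clathrin route genes between -0.39 and 1.21 (circles).

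Of the 4 eligible green tissue markers, 3 were called lower in the same comparison. All 4 were below 0 in TFIISmut induced against TFIISmut mock, with a median of -1.05, and LHCA1, PSAN and RBCS-1B were called lower, where 1.69% of all eligible genes were. LHCB1.2 is listed at 0 in TFIISmut mock and was left out there. The 4 markers above 0 in every pool together summed to 2734 FPKM in TFIISmut induced and 5711 FPKM in TFIISmut mock, and to 4559 FPKM in TFIIS induced and 5438 FPKM in TFIIS mock. The 4 root endodermis markers in the table summed to 19.0 FPKM in TFIISmut induced and 34.3 FPKM in TFIISmut mock, and to 35.1 FPKM in TFIIS induced and 35.9 FPKM in TFIIS mock, with none at 0 in any pool. Of these, 2 were eligible in TFIISmut induced against TFIISmut mock, at -0.85 and -0.59, and 0 were called. The part of either marker list in the flotillin differences was not tested.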

How the data were processed

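Polyadenylated RNA was profiled in 12 libraries, 3 for each of 4 conditions, made with a stranded mRNA kit, per the labels' protocols. The aligner Bowtie2 2.3.5 was used, per the submitters' processing notes; the quantifier, build and annotation behind the table were not given in the sources used here. Per gene and condition 1 value was deposited. The authors' deposited values were read as FPKM from the table's layout, since no header or label names the unit. How the authors combined the libraries is not given, depth is unknown, and no interval, error or test was possible. No label spells out the column names; they were read as construct crossed with 0 or 24 h of estradiol, on which each statement about a line depends.

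Of 32705 rows, 38 with repeated identifiers were left out. Differences of log2(FPKM + 1) were called by size: at least 1, with a larger FPKM of at least 5 and no value at 0. Alternatives were a pseudocount of 0.1 or none, 4 scalings, a minimum of 1 or 10 FPKM or none, and the other line's mock as control. The members and lists were chosen with earlier results of these data known. The genes named are the 3 members, the 4 rows on each side, the 5 nearest profiles, list genes and TFIIS; RAB18 was added after its values were seen. Of the rows, 32045 identifiers matched TAIR10.1, the assembly of all coordinates and sequences, which come from RefSeq; the end in the table equals that in RefSeq for 37.3% of these. Alignments were global (match 1, mismatch -1, gap opening -3, extension -1) in Biopython 1.88; other steps used Python 3.11.15 and pandas 2.3.3. The calling rule was also run on simulated data, with folds set only on genes at 5 FPKM or more in TFIISmut mock. All 3 flotillin genes lie below that level there, so nothing is read from it for them. 1 upstream window is not reported here.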

Additional observations from a re-analysis of the deposited data

Results flagged for a closer look

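The induction differences of FLOT1 and FLOT2 had opposite signs in the 2 lines: they were 4.15 and 4.77 in the TFIISmut line, where both were called higher, and -0.36 and -1.06 in the TFIIS line, where FLOT1 was not called and FLOT2 was not eligible, with a difference of induction effects of 4.51 for FLOT1 and 5.82 for FLOT2 on the log2(FPKM + 1) scale. With 1 pooled value per condition this difference was not tested. The negative sign in the TFIIS line rests on the TFIIS mock pool, since the differences were 0.24 for FLOT1 and 0.06 for FLOT2 with the TFIISmut mock pool as control.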

How the results depend on the processing

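No paired analysis was possible because each condition is 1 pooled column; a replicate block and leave-one-out fits were not run for the same reason. In TFIISmut induced against TFIISmut mock, the 3 flotillin genes kept their direction under the 4 scalings and with the TFIIS mock pool as control. A minimum FPKM leaves the differences unchanged and a pseudocount cannot turn a sign, so those alternatives could not change the direction. Over all 10 alternatives the differences ranged from 3.56 to 4.51 for FLOT1, 3.65 to 5.57 for FLOT2 and 2.06 to 3.25 for FLOT3. With a minimum of 10 FPKM, FLOT3 was not eligible there or in the other comparisons that called it. With a minimum of 1 FPKM or with no filter, 1 flotillin gene, FLOT2, was called lower in TFIIS induced against TFIIS mock (-1.06) and in TFIISmut mock against TFIIS mock (-1.11), because it became eligible. With the TFIISmut mock pool as control, FLOT1 (0.24) and FLOT2 (0.06) turned positive in the TFIIS line, and 125 genes were called in place of 210, with 71.2% of calls higher in place of 46.7%; the cause was not tested. Leaving out organelle genes and rescaling the rest shifted the median difference of all genes by -0.17 in the TFIIS line and -0.13 in the TFIISmut line and gave 21.4% in place of 46.7% of calls higher in the TFIIS line and 65.1% in place of 76.5% in the TFIISmut line. Leaving out the 20 most abundant genes shifted it by -0.15 between the induced pools and gave 52.0% in place of 67.5% of calls higher there. Depth is unknown, so low values such as those of FLOT3 have no known precision.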
